A study of Homo sapiens with 2 samples.

Results

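This account concerns 4 genes of the SOCS family, SOCS1, SOCS2, SOCS3 and CISH, and the PRDM1 binding called around them. A peak was assigned to a gene when its summit lay in the gene body or within 50 kb of it, on GRCh37 gene bodies given to the nearest 1 kb. This rule uses positions and no tag count or score, but the genes were picked with earlier results of these data known. Of 9669 PRDM1 peaks, 10 met the rule. SOCS1 had 5 of them, SOCS3 had 3, CISH had 2 and SOCS2 had 0. The peaks come from ChIP-seq, in which DNA bound by a protein is precipitated with an antibody and sequenced. The cells were U266, a long-established line from human multiple myeloma that the labels call a plasma cell lymphoma, with no treatment or genetic change given. The PRDM1 antibody, clone C14A4, gave 1 library, and DNA taken without antibody gave the other, the input. The growth protocol also names another myeloma line, NCI-H929, but each library carries the label U266. With no replicate of either, the intervals below cover counting error only, and no expression data were used here.

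SOCS proteins are the feedback brakes of cytokine signalling. A cytokine such as interleukin 6 joins its receptor chains, the attached Janus kinases (JAKs) phosphorylate STAT transcription factors, and STATs switch on SOCS genes, whose products bind the kinases or receptors through an SH2 domain and recruit a ubiquitin ligase through the SOCS box. SOCS1 and SOCS3 can also block JAK activity directly, whereas CISH and SOCS2 act mainly at receptors that signal through STAT5. Interleukin 6 is a growth factor of myeloma cells. PRDM1, also called BLIMP-1, is the zinc finger repressor that installs the plasma cell programme, and its known DNA site has a core of the form GAAAG.

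The promoter sequences of the 3 genes with peaks are shown because 1 CISH peak lies at the 5′ end of its gene and because the SOCS1 and SOCS3 peaks do not. SOCS2 had no entry among the promoter sequences used, so its promoter could not be searched. Each run is the 250 bases before the RefSeq start, 5′ to 3′ on the gene's strand, from GRCh38.p14. Capitals mark GAAAG or the longer AGNGAAAG, searched on both strands, so that a match on the other strand reads CTTTC. Every AGNGAAAG match also holds GAAAG. The CISH run is chr3:50611775-50612024, the SOCS1 run is chr16:11256205-11256454 and the SOCS3 run is chr17:78360926-78361175, all 3 on the minus strand.
CISH: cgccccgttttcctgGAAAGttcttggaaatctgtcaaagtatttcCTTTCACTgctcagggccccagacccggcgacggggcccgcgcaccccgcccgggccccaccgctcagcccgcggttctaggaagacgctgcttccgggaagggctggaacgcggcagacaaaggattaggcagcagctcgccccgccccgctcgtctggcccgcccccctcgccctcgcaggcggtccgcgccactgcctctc
SOCS1: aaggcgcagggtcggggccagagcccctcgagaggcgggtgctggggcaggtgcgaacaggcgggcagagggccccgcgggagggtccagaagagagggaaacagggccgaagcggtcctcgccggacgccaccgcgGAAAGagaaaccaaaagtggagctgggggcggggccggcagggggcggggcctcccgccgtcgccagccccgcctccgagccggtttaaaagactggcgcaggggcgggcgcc
SOCS3: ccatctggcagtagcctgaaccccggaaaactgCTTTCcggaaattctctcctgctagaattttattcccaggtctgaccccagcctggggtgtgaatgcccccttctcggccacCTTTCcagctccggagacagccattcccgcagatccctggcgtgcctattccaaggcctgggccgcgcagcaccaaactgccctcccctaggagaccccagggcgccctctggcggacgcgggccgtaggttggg

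CISH had the longer form once, as AGTGAAAG on the other strand, 204 to 197 bases before the start. Among 27303 promoters of the same length, 6.66% held AGNGAAAG. The shorter GAAAG was found 2 times in the CISH run, 2 times in the SOCS3 run and 1 time in the SOCS1 run, and 49.2% of promoters held it. A second SOCS3 start in RefSeq had no match to either form. These are matches of letters and not measured sites. The peaks are on GRCh37 and the sequences on GRCh38, so whether the AGTGAAAG of CISH lies under the CISH peak was not tested.

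The PRDM1 library kept 7854466 tags after duplicates were removed and the input kept 8556458, or 3.17 input tags per 1 kb of effective genome. The smallest peak in the list held 9 tags. Tags over expected is the tag count, scaled to the input depth, divided by the tags that the caller predicted from the input. Its interval carries the counting error of the PRDM1 tags only and takes the expected tags as exact. The false discovery rate (FDR) is the caller's own and counts peaks called with ChIP and input swapped. Peaks that reach 50 tags and whose FDR does not exceed 5% form the authors' filtered list, called filtered peaks here.

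**Figure D1:**
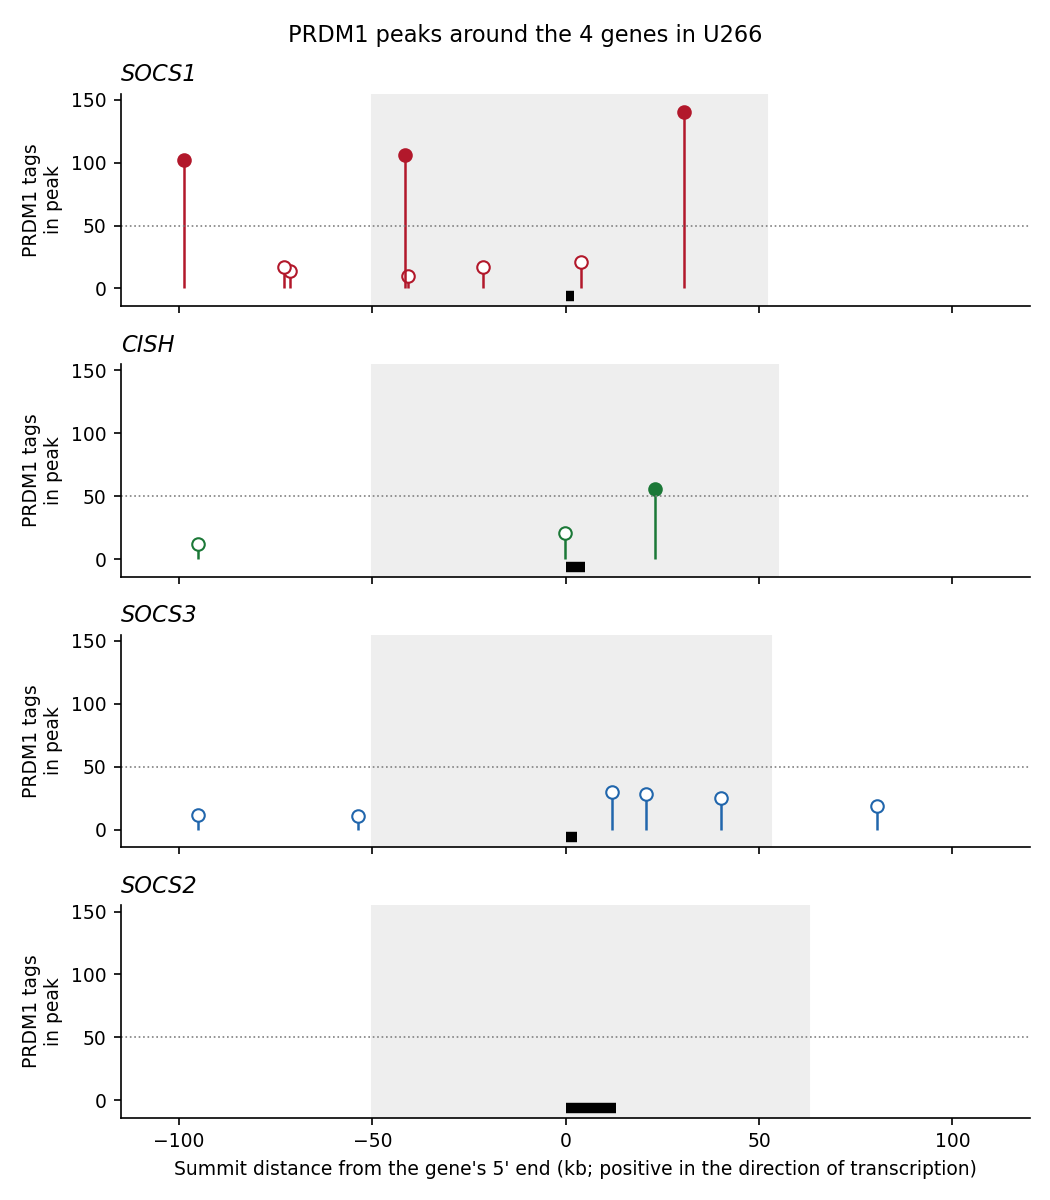
PRDM1 tags of each peak (vertical axis) against the distance of its summit from the 5′ end of the gene in kb (horizontal axis), for SOCS1, CISH, SOCS3 and SOCS2 in U266. Black bars are gene bodies, grey areas reach 50 kb beyond them, filled points are filtered peaks and the dotted line is 50 tags; SOCS1 has filtered peaks of 140 and 106 tags on either side of the gene, and the SOCS2 panel is empty.

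SOCS1, which encodes the direct JAK inhibitor induced by interferons and other cytokines, had the strongest binding of the 4 genes. Its 2 filtered peaks lay on opposite sides of the gene and held 140 and 106 tags. The other 3 peaks of its window held 10 to 21 tags, and none of the 3 passed the FDR limit. No peak summit lay inside the SOCS1 gene body, and the nearest one lay 1.93 kb beyond its 3′ end.

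The upstream filtered peak of SOCS1 was on chromosome 16 from 11391005 to 11392183, with its summit 41.6 kb before the 5′ end. It held 106 tags (95% Poisson interval 86.8 to 128) over 1179 bp, where 3.89 scaled tags were expected, a ratio of 29.6 (24.2 to 35.7). The deposited fold at its summit was 110.61. Of the 9667 peaks for which expected tags could be recovered, 15 had a higher ratio of tags over expected. Of all 9669 peaks, 9 had a higher fold, although 194 held more tags. Its input background was 1.04 times the genome mean, so the high ratio was measured over a background close to that mean.

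The downstream filtered peak of SOCS1 was on chromosome 16 from 11318311 to 11320489, with its summit 30.5 kb past the 5′ end in the direction of transcription. It held 140 tags (118 to 165) over 2179 bp, more than any other peak of the 4 genes, against 9.81 expected. Its ratio was 15.5 (13 to 18.3) and its fold 55.56, and 99 peaks of the complete list held more tags. The upstream peak was thus the more enriched and the downstream peak the wider. The intervals of the 2 ratios, which leave out any error in the expected tags, did not overlap, whereas those of the tag counts did.

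The weak SOCS1 peaks were spread between these. The one nearest to the gene, from 11345801 to 11346316, held 21 tags at 3.67 times the expected number (2.27 to 5.61) and had an FDR of 10.57%. Its input background was 3.67 times the genome mean, and 1.23% of all peaks had a higher one; the part of the background in this call was not tested. The peak from 11370825 to 11371687, 21.4 kb upstream, held 17 tags at a ratio of 4.64 (2.7 to 7.42), with an FDR of 7.37%. The fifth peak, from 11390451 to 11391000, held 10 tags at a ratio of 5.2 (2.49 to 9.55) and had an FDR of 44.61%. Only 4 bases separated its edge from the strong upstream peak, and with peaks within 1 kb of each other counted once SOCS1 had 4 regions.

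CISH, the first member of the family to be described and an inhibitor of STAT5 signalling from cytokine receptors, was the only one of the 4 genes with a peak at its 5′ end. This peak, on chromosome 3 from 50648883 to 50649605, spanned the 5′ edge of the gene body at the 1 kb precision used, and its summit lay 0.212 kb outside that edge. It held 21 tags (13 to 32.1) against 3.04 expected, a ratio of 7.24 (4.48 to 11.1), with a fold of 14.29 and an FDR of 0.33%. It passed the FDR limit but not the limit of 50 tags, so it is absent from the filtered list. MAPKAPK3 follows CISH in RefSeq order on this 5′ side, and the assignment to either gene was not tested.

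The stronger CISH peak lay on the other side of the gene, 23 kb past its 5′ end and 18 kb beyond its 3′ end, from 50625334 to 50626729. It held 56 tags (42.3 to 72.7) against 5.58 expected, a ratio of 10.9 (8.25 to 14.2), with a fold of 36.25 and an FDR of 0. It was the third filtered peak of the 4 genes and exceeded the limit of 50 tags by a margin smaller than its counting error. HEMK1 and then C3orf18 are the next protein-coding genes on that side in RefSeq order. The intervals of the 2 CISH ratios overlapped, whereas those of the 2 tag counts (42.3 to 72.7 and 13 to 32.1) did not. Whether the 2 ratios differ was not tested.

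SOCS3, the inhibitor that binds the interleukin 6 receptor chain gp130 and limits STAT3, had 3 peaks of similar size and no filtered one. All 3 lay past the 3′ end, and none lay within 50 kb on the 5′ side. The nearest, on chromosome 17 from 76343831 to 76345160, held 30 tags (20.2 to 42.8), with its summit 8.85 kb beyond the gene. The next, from 76334730 to 76335692, held 28 tags (18.6 to 40.5), and the farthest, from 76315344 to 76316379, held 25 (16.2 to 36.9). The 3 counts lay within each other's intervals.

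The enrichment of the SOCS3 peaks also lay within overlapping intervals. Tags over expected were 7.08 (4.77 to 10.1), 5.19 (3.45 to 7.5) and 6.86 (4.44 to 10.1) in order of distance from the gene. Their FDR values were 0.11%, 0.33% and 0.14%, so all 3 passed the FDR limit and failed only the tag minimum. Summit spacing was 8.89 kb between the first pair and 19.5 kb between the second. The nearest SOCS3 peak had a lower fold, 11.76, than the 15.83 and 14.47 of the others despite its higher tag count, and was the widest of the 3 at 1330 bp. TMEM235 and BIRC5 are the next protein-coding genes on that side in RefSeq order.

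SOCS2, which limits growth hormone signalling through STAT5, had no peak within 50 kb. None appeared within 100 kb either. The nearest peak lay 255 kb beyond its 3′ end, on chromosome 12 from 94232124 to 94232583, and held 9 tags with an FDR of 41.73%. On the 5′ side the nearest lay 510 kb away and held 14 tags. The nearest filtered peak lay 1490 kb away. The RefSeq model of SOCS2 is longer than the body used here, and with that length the count stayed at 0. A peak list holds called regions only, so binding too weak to be called at this depth would not appear in it.

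**Figure D2:**
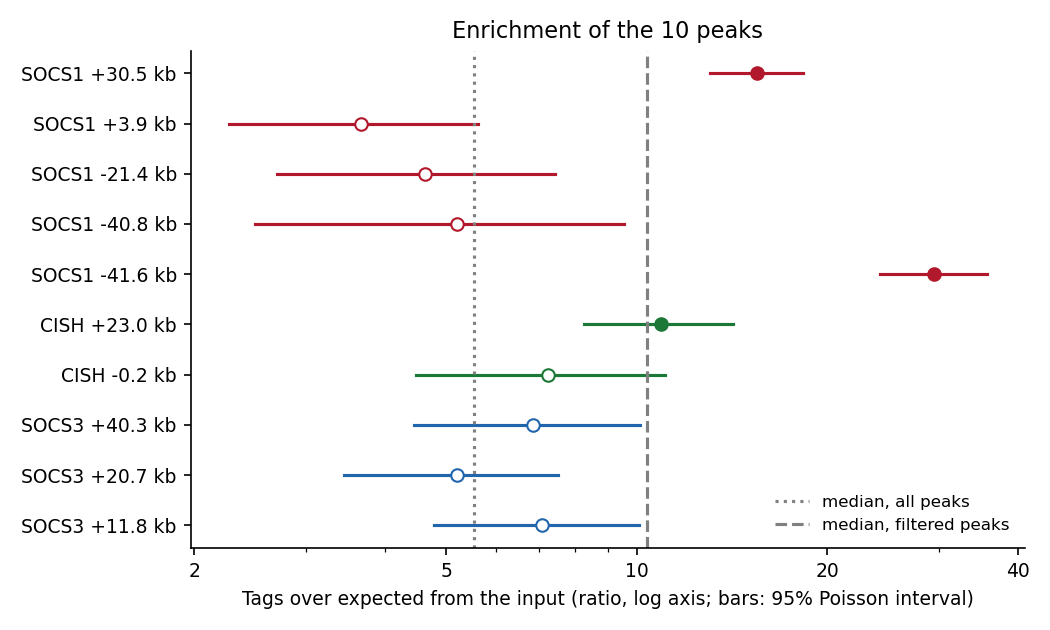
Tags over expected (horizontal log axis, ratio) for the 10 peaks, named by gene and by the distance of the summit from the 5′ end in kb; points are the ratios, bars the 95% Poisson intervals of the tags, filled points filtered peaks, and the dotted and dashed lines the medians of all peaks (5.54) and of filtered peaks (10.4). The upstream SOCS1 peak at 29.6 and the downstream one at 15.5 lie above the filtered median with their whole intervals.

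By their strongest peak the genes were ordered SOCS1 with 140 tags, CISH with 56 and SOCS3 with 30, and SOCS2 had none. The interval of SOCS1 (118 to 165) lay above that of CISH (42.3 to 72.7), whereas those of CISH and SOCS3 (20.2 to 42.8) overlapped at their ends. The summed tags of each window were 294 at SOCS1, 83 at SOCS3 and 77 at CISH. The sum therefore placed SOCS3, with 3 peaks, beside CISH, with 2.

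Of the 10 peaks, 3 were filtered, where 9.17% of all 9669 peaks were. An FDR of at most 5% was reached by 7 of the 10, where 43.5% of all peaks reached it. The 7 were 2 of 5 at SOCS1, 3 of 3 at SOCS3 and 2 of 2 at CISH. The 10 peaks had a median of 26.5 tags and of 6.97 times the expected tags, against 15 tags and 5.54 times over the complete list. With 10 peaks from 3 loci these shares are descriptions, and peaks of 1 locus are not independent of each other.

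**Figure D3:**
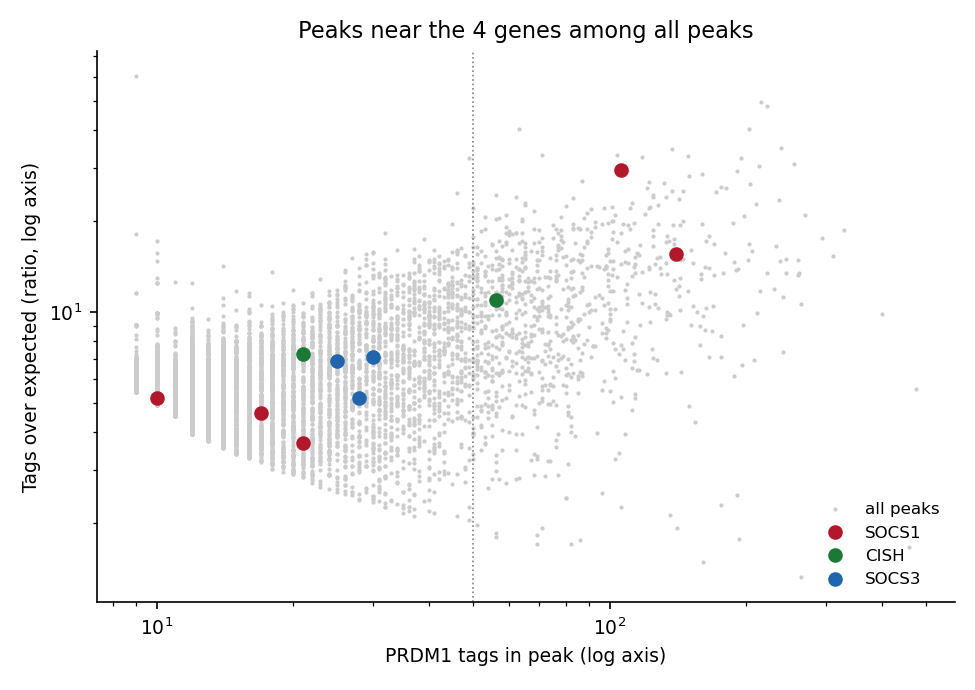
Tags per peak (horizontal log axis) against tags over expected (vertical log axis) for all peaks with a recovered background (grey) and for the peaks of SOCS1 (red), CISH (green) and SOCS3 (blue); the dotted line is 50 tags. The 2 filtered SOCS1 peaks, at 106 and 140 tags, lie among the strongest peaks. The other 3 SOCS1 peaks, at 10 to 21 tags, have ratios below the median of all peaks (5.54).

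The number of peaks around each gene was set against a fixed grid of equally wide windows over the whole genome, gaps and gene-poor regions included. At the SOCS1 width of 102 kb, 23.9% of windows held a peak, 0.056% (17 of 30338) held 5 or more, and 2.77% held a filtered peak. The 17 include the grid window over SOCS1 itself, although its edges differ from those of the 50 kb rule. Windows with 2 or more filtered peaks, as at SOCS1 under the 50 kb rule, made up 0.148%. In the grid, the 2 filtered SOCS1 peaks fell in different windows. At the SOCS3 width of 103 kb, 24.1% held a peak and 1.55% held 3 or more. At the CISH width of 105 kb the shares were 24.5% with a peak and 6.4% with 2 or more. At the SOCS2 width of 113 kb, 25.9% held a peak, so a window without one, as at SOCS2, was the usual case.

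On their own chromosomes the same counts were somewhat more common at SOCS3 and somewhat less common at CISH. At SOCS1 the count stayed rare, with a share that rests on 1 window. On chromosome 17, 2.03% of windows held 3 or more peaks, and on chromosome 3, 5.73% held 2 or more. On chromosome 16, 1 of 885 windows (0.113%) held 5 or more, and this was the grid window over SOCS1 itself. Its edges are not those of the 50 kb rule, and it held 6 peaks. It left out the downstream filtered peak of 140 tags and took in the weak peaks 71.4 and 72.9 kb upstream. No other window of chromosome 16 reached that count. The grid was not restricted to gene-rich sequence, in which all 4 genes lie, and the part of gene density in these counts was not tested.

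**Figure D4:**
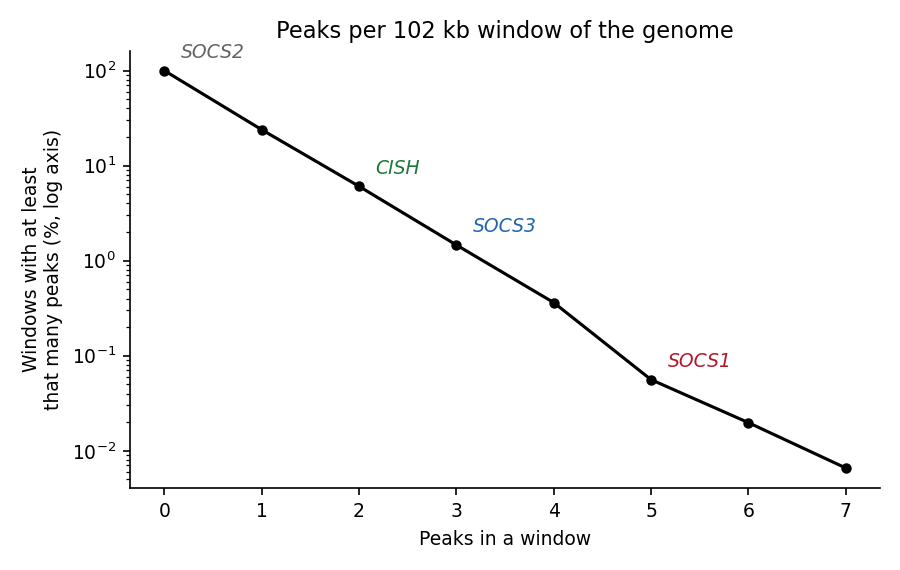
Share of 102 kb windows of the genome (vertical log axis, percent) that held at least the number of peaks on the horizontal axis; the names mark the number of peaks within 50 kb of each of the 4 genes. Windows with at least 5 peaks, as many as at SOCS1, made up 0.056%.

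Other genes lie on both sides of SOCS1, and whether they fall inside its window was not tested. In RefSeq order, CLEC16A is the next protein-coding gene on its 3′ side and TNP2, PRM3, PRM2, PRM1 and RMI2 follow on its 5′ side, with CIITA beyond CLEC16A and DEXI. PGS1 follows SOCS3 on its 5′ side, and CRADD follows SOCS2 on its 3′ side. Distance alone assigned the peaks, and which gene any of them acts on was not measured. The next peaks just outside the 50 kb limit were 53.7 kb upstream of SOCS3, with 11 tags, and 71.4 kb upstream of SOCS1, with 14 tags, and the farthest peak inside it was the strong upstream one of SOCS1 at 41.6 kb.

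Other genes of the pathway were taken from a list of 19, each placed to 1 kb from general knowledge of GRCh37, and 12 of them had a peak within 50 kb and 8 a filtered one. In genome grids of these genes' own window widths, 105 to 243 kb, the share of windows with a peak ran from 24.5% to 43.7% and the share with a filtered peak from 2.84% to 6.16%. Over the 19 widths the mean shares were 32.5% and 4.13%, again with gene-poor sequence included. The other SOCS genes had little: SOCS7 had 3 peaks, the strongest with 39 tags at its 5′ end, SOCS5 had 1 with 12 tags, and SOCS4 and SOCS6 had 0, so that no SOCS gene outside SOCS1 and CISH had a filtered peak. Among the 6 STAT genes listed, which carry the signal to the nucleus, 4 had a filtered peak. A peak of 168 tags inside STAT3, at 8.65 times the expected number (7.39 to 10.1), also fell in the windows of STAT5A and STAT5B, so 3 of the 4 shared it. The fourth, STAT4, had 4 peaks within 50 kb, of which 2 were filtered.

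Upstream in the pathway, 2 of the 4 Janus kinases had peaks, JAK1 with a filtered one of 69 tags and TYK2 with none filtered, while JAK2 and JAK3 had 0. Of interleukin 6 and its receptor chains, IL6R had a filtered peak of 51 tags within the gene body, 1.9 kb past its 5′ end. IL6ST, which encodes gp130, had one of 93 tags, but it lay beyond the 3′ end, 97.8 kb past the 5′ end. No peak lay within 10 kb of IL6ST. By contrast, IL6 had 1 peak of 40 tags with an FDR of 28.38%. PTPN6, which encodes the phosphatase SHP-1, had a filtered peak of 98 tags, and PTPN11 had 0. By number of peaks, SOCS7, JAK1 and PTPN6 had 3 like SOCS3. TYK2 and IL6R had 2 like CISH. SOCS4, SOCS6, JAK2, JAK3, STAT2, STAT6 and PTPN11 had 0 like SOCS2, and no gene of the list had 5 like SOCS1. The windows of long genes such as JAK1 are wider than those of the SOCS genes, so these counts are given side by side and were not tested against each other.

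**Figure D5:**
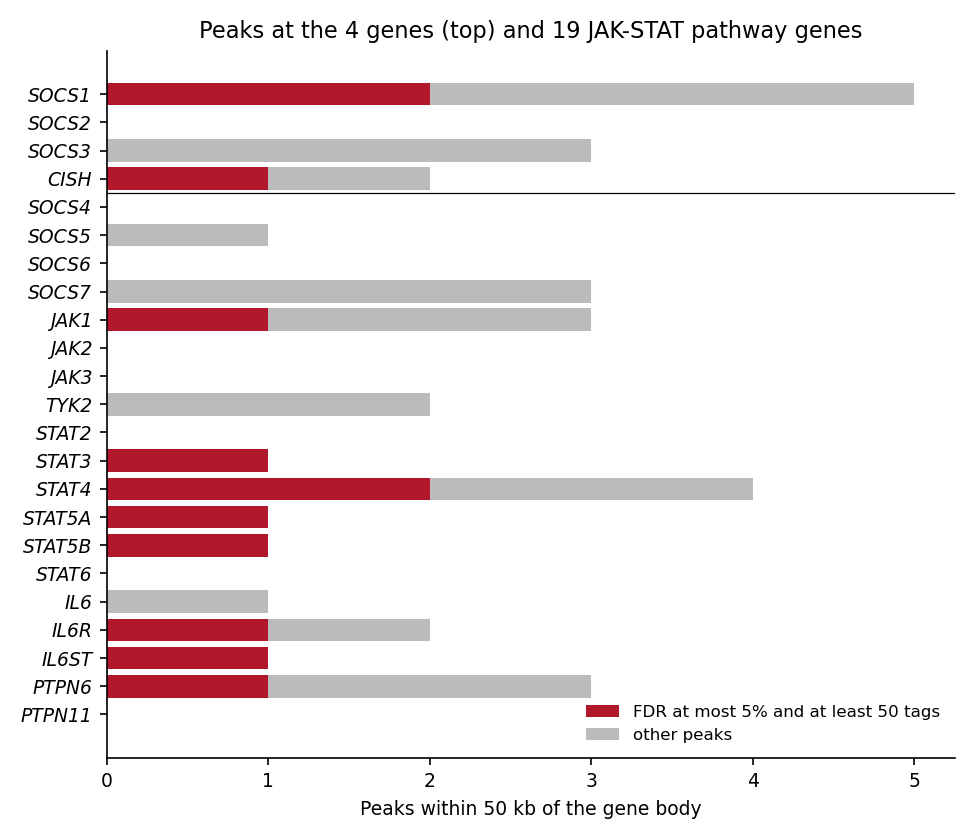
Number of peaks within 50 kb of the gene body (horizontal axis) for the 4 genes (above the line) and 19 JAK-STAT pathway genes, with filtered peaks in red and other peaks in grey. SOCS1 has 5 peaks, STAT4 has 4, and STAT3, STAT5A and STAT5B share 1 filtered peak.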

How the data were processed

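Per the submitters' processing notes, the tools were CASAVA 1.8.2, Bowtie 0.12.7 and MACS 1.4, and the file header names MACS 1.4.1 run on merged alignments with a p cutoff of 1e-05. The genome build is not given in the sources used here; 0 peaks passed a GRCh37 chromosome end, with lengths entered from general knowledge. Tags per peak are raw counts deposited by the authors. The deposited score is 10 times −log10 p. The deposited fold is a ratio of summit height to local background, and the deposited FDR is in percent. Both copies of the complete list held the same 9669 lines, and the 887 filtered peaks were recovered from it.

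Expected tags were solved with scipy 1.17.1 from each score, as the Poisson mean that gives it for the tags scaled by 1.09 and rounded down. Multiplied by the deposited fold this gave summit heights whole within 0.06 tags for 98.7% of 9667 peaks, and for all 10 SOCS peaks. The solving and the window counts were tested on simulated data. Gene bodies of the 4 genes came from the rule. The 19 pathway genes were placed from general knowledge, with the chromosome matching RefSeq GRCh38.p14 for 19 of 19, the strand for 16 of 16 with a promoter entry, and the length within 2 kb for 16; RefSeq models of 3 were longer by over 2 kb, and the strand of SOCS2 is from general knowledge. Named genes were the 4 members with every peak in their windows, pathway genes with a filtered peak, and those with as many peaks as a member; 1 gene of the pathway list is not reported here. Members and lists were chosen with earlier results of these data known. No test was possible with 1 library of each kind. Other distances, thresholds, scalings and grids were tried.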

Additional observations from a re-analysis of the deposited data

How the results depend on the processing

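The number of peaks at the 4 genes, 10 within 50 kb, was 3 within 10 kb, 5 within 20 kb and 17 within 100 kb, and 3 in the filtered list. It was 9 at an FDR of at most 20%, 7 at 5%, and 10 with any base of the peak in the window. The genes with a peak were 3 under each of these settings except the filtered list, where SOCS1 and CISH made 2. The filtered peaks, 3 in all, numbered 0 within 10 kb, 1 within 20 kb and 4 within 100 kb, 6 with a minimum of 25 tags and 2 with 100; these changes follow from the width of the window or the limit itself. Pathway genes with a peak numbered 12 within 50 kb, 8 in the filtered list and 6 within 10 kb. For the 10 peaks, the median ratio to the expected tags was 6.97; it became 6.84 when scaled tags were rounded to the nearest and 7.62 without scaling; the upstream SOCS1 peak reached 36.5 unscaled against 29.6, beyond its interval. The lengthened SOCS2, the merging of close peaks (9 regions) and the windows of single chromosomes were chosen after seeing the data. Shifting the grid by 50% moved no share of windows with a peak past 1.5 times. No paired analysis was possible because neither the PRDM1 nor the input library had a replicate. The counts of the 25, 28 and 30 tag SOCS3 peaks lay within each other's intervals, and their order was not tested.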

Other observations

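Peaks were also called beyond 50 kb from SOCS1 on the side away from CLEC16A, where TNP2, PRM3, PRM2, PRM1 and RMI2 follow in RefSeq order. Their assignment to any gene was not tested. A further filtered peak, on chromosome 16 from 11448062 to 11449798, lay 98.7 kb upstream of SOCS1 and held 102 tags at 6.39 times the expected number (5.21 to 7.76), with an input background of 3.16 times the genome mean. Between it and the strong upstream peak lay 2 weak peaks of 14 and 17 tags, 71.4 and 72.9 kb upstream. The megabase of chromosome 16 from 11000001 to 12000000 held 13 peaks, of which 5 lay in the SOCS1 window, and 5 filtered peaks, of which 2 did. The 3 filtered peaks between 11318311 and 11449798 held 102 to 140 tags. Their ratios of 15.5, 29.6 and 6.39 had intervals that did not overlap. Similar tag counts thus stood over unequal expected tags, 9.81, 3.89 and 17.4 in that order. Peak width and input background both enter the expected tags. The widths were 2179, 1179 and 1737 bp, and the backgrounds 1.42, 1.04 and 3.16 times the genome mean. Their separate parts were not tested.

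At SOCS3 the wider window added 3 peaks of 11, 12 and 19 tags, and at CISH it added 1 of 12 tags. The only one of these 4 with an FDR of at most 5% was the SOCS3 peak of 19 tags, 80.4 kb past the 5′ end, at 3.23%, on the same 3′ side as the other SOCS3 peaks.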
